A study of Drosophila melanogaster with 3 samples.

Results

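The 8 genes described here, Eip74EF, Eip93F, br, Blimp-1, tai, hid, rpr and grim, were listed by name from the ecdysone response and the programmed cell death pathway of Drosophila melanogaster, and are 8 of the 13945 protein-coding genes on the 6 chromosome arms of the release 6 annotation. Ecdysone is the steroid hormone that times moults and metamorphosis. Bound to the receptor EcR with its partner Usp, it switches on a small set of early transcription factors, which in turn act on tissue-specific targets and, in larval tissues that are discarded, on genes that start apoptosis. Eip74EF, Eip93F, br and Blimp-1 encode transcription factors of this response and tai encodes a coactivator of EcR. The products of hid, rpr and grim bind the inhibitor of apoptosis Diap1 and so free the caspases.

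The study mapped where the nuclear receptor Hr51 (unfulfilled), known for its part in mushroom body neurons, sits on the genome, by chromatin immunoprecipitation and sequencing (ChIP-seq) of whole embryos aged 0 to 24 h, of mixed sex. All samples came from the transgenic strain Dhr51-GFP, which carries Hr51 with GFP fused at its C-terminus. The precipitation was with anti-GFP according to the description, although another label names the antibody as Hr51. There were 3 biological replicates of 1 group, with no untreated or untagged group, so nothing here compares conditions. Whole embryos mix all cell types and a full day of development, and neither the cells that carried a signal nor its stage can be told from these data.

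The deposited data were peak lists on dm6. There were 4 relaxed lists of 30000 entries, for the separate replicates and for their pool, which by their labels include background. A shorter list that passed an irreproducible discovery rate (IDR) threshold held the 3496 pooled entries of highest signal. Each peak has a summit, the base of highest enrichment, and a signal value from the authors' peak caller, used here as a rank within a list, where rank 1 is the highest. The lists give no read counts, so sequencing depth is unknown and each count below is given without an interval. A gene's window was the annotated gene and 5 kb to either side. A summit within 500 bp of a transcription start site (TSS) was called a promoter summit.

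Hr51 summits of the IDR list lay in the windows of 7 of the 8 genes, with grim as the exception. Across all protein-coding genes 44.6% had such a summit. The windows of the 8 genes were long, with a median of 50.9 kb against 12.2 kb for all protein-coding genes, and per length they held no more summits than the genome. Together the 8 windows spanned 420.9 kb and held 10 IDR summits, or 0.238 per 10 kb, against 0.261 per 10 kb over the 133.9 Mb of the arms. Only hid and tai had an IDR summit at a TSS of their own. That is 2 of 8 genes, against 19.1% of all protein-coding genes, and the same count of 2 was found in the 3496 highest peaks of each replicate. These counts lean on the distances allowed: without the 5 kb only tai and br kept a summit in the window, and within 200 bp only tai kept one at a TSS. Of the 10 summits, 4 were at a TSS of hid or tai, 4 were at the TSS of a neighbouring gene, 1 was in an intron of br and 1 was in intergenic sequence upstream of rpr.

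**Figure D1:**
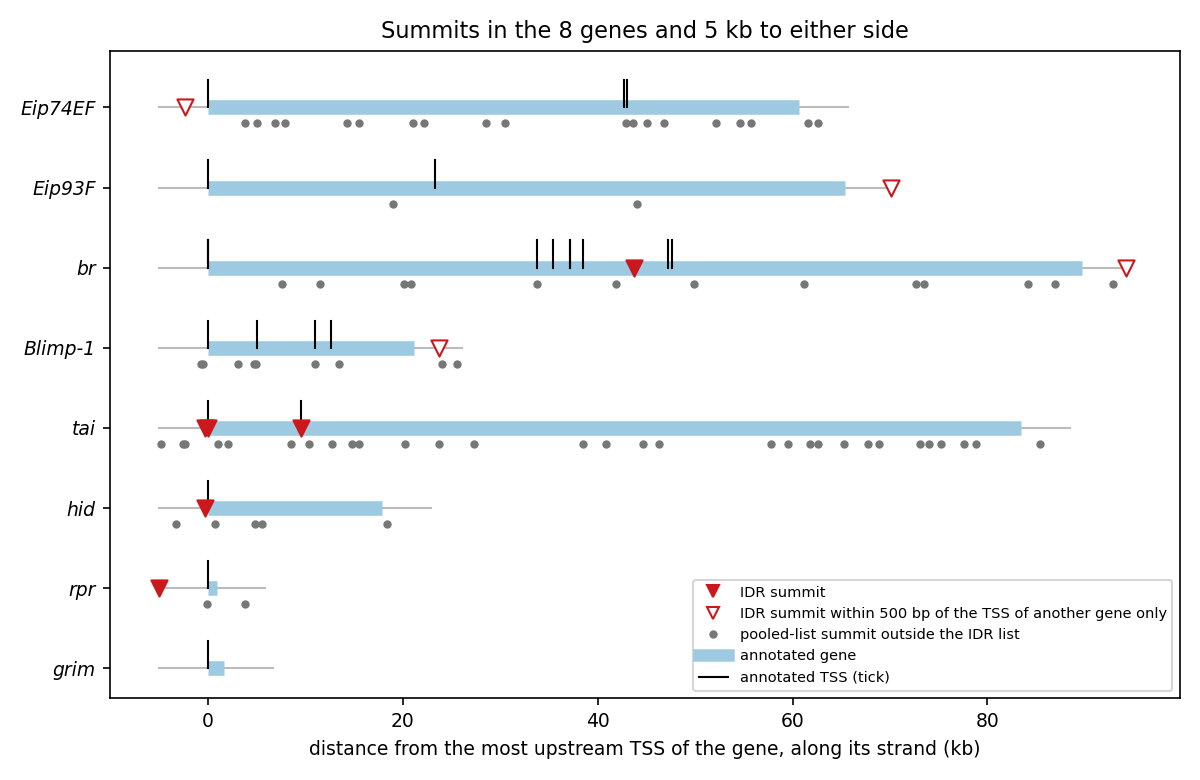
Positions of summits along each of the 8 genes, in kb from the most upstream TSS and in the direction of transcription. Filled triangles are IDR summits, open triangles are IDR summits at the TSS of another gene only, dots are pooled-list summits outside the IDR list, bars are the annotated genes and ticks their TSSs. Filled triangles stand at TSSs in tai and hid, inside br and 4990 bp upstream of rpr, and the only IDR summits of Eip74EF, Eip93F and Blimp-1 are open.

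The sequences of 7 of these summits are shown to place the word CAGCTG. It was noticed in all 3 tai windows and is absent from the other windows shown. The windows at lin-28 and Idh3b lie mostly inside those genes and are not printed, nor is the br window at CG3740, which had no match to any word searched. Each is the plus strand of Release 6 (dm6), read 5′ to 3′ over 101 bp centred on the summit. Capitals mark every match, on either strand, to the words searched: AAGTCA (a nuclear receptor core site), the related core AGGTCA, the ecdysone element (an inverted repeat of AGGTCA), CCGGAAGT (ETS factors such as Eip74EF), TATCGATA (DREF and BEAF), GAGAG (GAGA factor), CAGGTAG (Zelda), the word TTAAAA and then ACACTG, followed by CGATAG as well as CAGCTG (which reads the same on either strand). The last 3 words were added after these sequences had been seen, so their counts are descriptions of what was noticed. AGGTCA is also part of the ecdysone element, and CGATAG can overlap TATCGATA.
tai, 230 bp upstream of the first TSS, chr2L:9166498-9166598: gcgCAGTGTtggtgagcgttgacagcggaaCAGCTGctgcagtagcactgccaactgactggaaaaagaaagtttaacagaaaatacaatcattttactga
tai, 21 bp upstream of the first TSS, chr2L:9166707-9166807: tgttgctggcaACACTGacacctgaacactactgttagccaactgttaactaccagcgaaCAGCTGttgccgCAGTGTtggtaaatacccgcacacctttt
tai, 43 bp upstream of the second TSS, chr2L:9176265-9176365: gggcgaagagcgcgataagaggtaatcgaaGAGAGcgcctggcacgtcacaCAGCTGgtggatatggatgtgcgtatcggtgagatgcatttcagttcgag
hid, 325 bp upstream of the TSS, chr3L:18185916-18186016: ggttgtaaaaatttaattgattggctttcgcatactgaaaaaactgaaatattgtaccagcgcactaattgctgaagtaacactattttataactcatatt
rpr, 4990 bp upstream of the TSS, chr3L:18403375-18403475: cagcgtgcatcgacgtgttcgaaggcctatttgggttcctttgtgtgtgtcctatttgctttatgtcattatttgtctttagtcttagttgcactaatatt
Eip74EF, 2382 bp upstream, at Vps60, chr3L:17621657-17621757: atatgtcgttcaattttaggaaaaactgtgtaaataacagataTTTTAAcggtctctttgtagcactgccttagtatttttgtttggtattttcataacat
br, intron, chrX:1618849-1618949: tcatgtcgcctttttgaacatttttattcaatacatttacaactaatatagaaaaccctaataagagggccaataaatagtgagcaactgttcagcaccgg

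All 3 tai windows held CAGCTG, which was present at 5.66% of all IDR summits and in 4.91% of windows of the same length 500 bp to either side of them. The 2 windows at the first tai TSS also held ACACTG, once and 2 times. The window of the Blimp-1 summit at the lin-28 promoter, not printed here, held ACACTG once. That word was present at 10.8% of all IDR summits and in 3.89% of the flanking windows. The window of the Eip93F summit, at the Idh3b promoter and also not printed, had 2 matches to CGATAG, against 8.72% of all IDR summits with at least 1. The hid, rpr and br windows held none of the 11 words. None of the 10 summits of the 8 genes had AAGTCA within 50 bp, nor AGGTCA or the ecdysone element, against 4.81%, 1.83% and 0% of all IDR summits. With 10 summits such shares would give a match at fewer than 1 summit, so these zeros carry little weight. The windows of the 10 summits ranged widely in base composition, at 28.7% to 54.5% GC with a median of 42.1%, against a median of 36.6% and quartiles of 30.7% and 44.6% for all IDR summits.

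Among the transcriptional regulators, tai (FBgn0041092, chr2L:9166778-9250211, plus strand), the steroid receptor coactivator of EcR, had the most IDR summits. In its long window of 93.4 kb this was 0.321 per 10 kb, the same as in Blimp-1. Of the 3 tai summits, the summit of highest signal (rank 1114) lay 230 bp upstream of the first TSS, that of tai-RD, tai-RG and tai-RH. It ranked 1534, 2093 and 342 in replicates 1, 2 and 3. This summit was also 34 bp from the TSS of CG9586, a gene on the opposite strand, so tai and CG9586 share it. The neighbouring summit, from a peak that overlaps that of the first, lay 21 bp upstream of the same tai TSS and 243 bp from that of CG9586. It had rank 2150. Its best matches within 150 bp ranked 3589, 13510 and 342, and the replicate 3 match was the same summit that matched its neighbour. The nearest replicate 3 entry, 78 bp away, ranked 3580. The third, 43 bp upstream of the TSS of tai-RC, tai-RE and tai-RF, was 9801 bp from the nearest TSS of another gene and had rank 3213, with 3989, 3117 and 3097 in the replicates. The 2 annotated starts of tai therefore both had an IDR summit, the upstream start in a promoter held jointly with its neighbour and the downstream start alone.

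In Eip74EF (FBgn0000567, chr3L:17558672-17619325, minus strand), an ETS-domain factor and classic early gene, the IDR summit was outside the gene. It lay 2382 bp upstream of the most upstream TSS and 82 bp from the TSS of Vps60, a gene of endosomal sorting. Its rank was 1092 in the pooled list and 1128, 1054 and 1463 in the replicates. At the upstream TSS of Eip74EF itself, that of Eip74EF-RA, Eip74EF-RC and Eip74EF-RE, no pooled summit was within 500 bp. Replicates 1 and 2 had entries 329 and 160 bp away, ranked 17094 and 5985, while the nearest entry of replicate 3 was 2331 bp away. The only pooled promoter summit was near the downstream starts, 125 bp from that of Eip74EF-RD, at rank 20055.

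Eip93F (FBgn0264490, chr3R:21949114-22014539, plus strand), which directs adult differentiation and the death of larval tissues, was the emptiest of the long genes. Its single IDR summit (rank 1262, with 1518, 1354 and 1146 in the replicates) was 4715 bp downstream of the gene, 70 bp from the TSS of Idh3b, a subunit of the mitochondrial isocitrate dehydrogenase. Neither of the 2 Eip93F starts had an IDR or pooled summit within 500 bp. Replicate 1 alone had an entry near a start, 80 bp from that of Eip93F-RB, at rank 13439.

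The gene br (FBgn0283451, chrX:1575132-1664869, plus strand) encodes the Broad zinc-finger factors that specify the pupal stage, and has 9 annotated starts. No start had an IDR summit, and 1 of the 9, that of br-RH, had a pooled summit within 500 bp, at 90 bp and rank 20771. The br summit of highest signal was inside the gene, in intron 1 of 8 of br-RL, an intron of 11334 bp, and 3409 bp upstream of the br-RS start. It had rank 1379 and stood at 997 and 856 in replicates 1 and 2 but at 8411 in replicate 3. The same bases lie within the long span of Mur2B, a mucin-related gene on the other strand, 744 bp from one of its starts. The other br summit, 4493 bp beyond the gene and 65 bp from the TSS of CG3740, had rank 2720. In the replicates it ranked 3912, 7251 and 2143, so it was among the 3496 highest peaks of replicate 3 only.

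Blimp-1 (FBgn0035625, chr3L:5630983-5652094, plus strand) encodes an ecdysone-induced repressor that sets the time of ftz-f1 expression. Its IDR summit, at rank 2676, was 2624 bp downstream of the gene and 37 bp from the TSS of lin-28, an RNA-binding regulator of developmental timing. The replicate ranks were 3542, 3001 and 3098, all close to the rank at which the IDR list ends. Of its 9 pooled summits outside the IDR list, 4 were promoter summits, the highest such count among the 8 genes. They were low, with the nearest 47 bp from the start of Blimp-1-RD at rank 22143 and 120 bp from that of Blimp-1-RC at rank 21061. No replicate 3 entry was within 500 bp of any Blimp-1 start.

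The death gene hid (FBgn0003997, chr3L:18167745-18185641, minus strand) had the highest IDR summit of the 8 genes. It lay 325 bp upstream of the only hid TSS, with rank 653 in the pooled list and ranks 782, 620 and 610 in the replicates. The 3 replicate summits were 325, 315 and 358 bp from the TSS. No TSS of another gene was within 500 bp, so this promoter summit was not shared. A weaker pooled summit followed in coding sequence 717 bp downstream of the TSS, at rank 8204, with a match in replicates 2 and 3 only.

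At rpr (FBgn0011706, chr3L:18397535-18398435, minus strand), a short gene of 901 bp without introns, the IDR summit lay 4990 bp upstream of the TSS, in intergenic sequence at the edge of the window. It had rank 1203 and ranked 1796, 1145 and 1139 in the replicates. The replicate 1 summit itself fell just beyond the window edge. The rpr TSS had a pooled summit 28 bp away at rank 16273, with replicate entries at 3 and 202 bp (ranks 9529 and 16845) in replicates 1 and 2 and none within 500 bp in replicate 3.

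The window of grim (FBgn0015946, chr3L:18302719-18304417, minus strand) held no summit of the IDR or the pooled list. The only entry was in replicate 1, 3706 bp upstream of the TSS at rank 21522, and replicates 2 and 3 had none. Counts in the replicates were thus 1, 0 and 0.

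**Figure D2:**
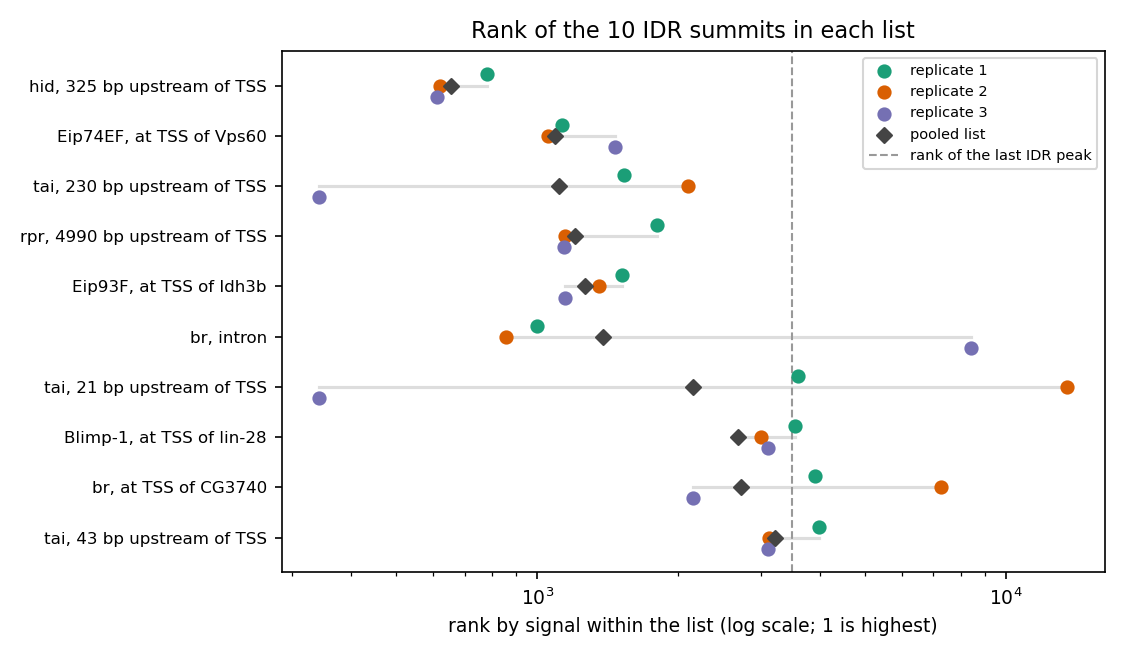
Rank by signal of each of the 10 IDR summits in the pooled list (diamonds) and of the best summit within 150 bp in each replicate (circles), on a log scale where 1 is the highest. The dashed line is rank 3496, the end of the IDR list. The hid, Eip74EF, rpr and Eip93F summits sit left of the line in all replicates and close together. The tai summit 230 bp upstream of the TSS also sits left of it in all replicates. The other summits cross the line, most widely the br intron summit and the tai summit 21 bp upstream of the TSS.

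The replicates placed 5 of the 10 summits among their 3496 highest peaks in every case, against 1838 of all 3496 IDR summits (52.6%). Those 5 were the summits of hid, Eip74EF, rpr and Eip93F and the tai summit of highest signal. Another 3 were found in 2 replicates and 2 in 1 replicate. For the tai summit 21 bp upstream of the TSS, that single match was the replicate 3 summit shared with its neighbour. When each replicate was left out and a match in both others was asked for, 7 summits remained without replicate 1, 5 without replicate 2 and 6 without replicate 3. In the full lists of 30000 entries all 10 had a match in every replicate, against 93.3% of all IDR summits. The IDR list was made from these replicates, so these shares describe the lists and are not an independent check. The signal of the 10 summits had 82.0 as the lowest, 138 as the median and 200 as the highest value, against 77.3, 118 and 1780 for all IDR summits. Their median was thus above that of the list, while the highest of them stood at rank 653.

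The nearest TSS of any annotated gene belonged to the gene whose window it was at 4 of the 10 summits (40.0%), against 30.8% of the 10082 pairs of a protein-coding gene and an IDR summit in its window. For 4 of 10 the summit was a promoter summit of another gene and of no own TSS, against 47.8% of all such pairs. The neighbours Vps60, Idh3b and CG9586 had a promoter summit in the 3496 highest peaks of all 3 replicates, lin-28 in replicates 2 and 3 and CG3740 in replicate 3. Without the summits at the TSS of another gene alone, 6 summits in 4 genes remained, tai, hid, rpr and br. With such neighbours the lists alone do not tell which gene, if any, a summit serves.

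The weaker entries mostly lay inside the long regulator genes, which also make up most of the length of the windows. The pooled list had 90 summits in the 8 windows, 80 of them outside the IDR list, and the replicate lists had 101, 97 and 84. The mean of the replicates, 94.0 ± 8.89 summits (SD, n = 3), was 2.23 ± 0.208 per 10 kb, against 2.24 per 10 kb over all arms in each list. Taken as one stretch, the 8 windows were as dense in relaxed entries as the arms, within the spread of the replicates. Gene by gene their median was lower: the median per 10 kb was 2.04, 2.63 and 2.04 for the 8 genes in the replicates, against 3.11, 3.06 and 3.18 for all protein-coding genes, and 2.45 against 3.25 in the pooled list.

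Single genes stood on either side of that density. In tai the replicates had 39, 31 and 21 summits, or 3.25 ± 0.965 per 10 kb. Eip74EF had 27, 25 and 22, or 3.49 ± 0.356 per 10 kb. Counts in br were 12, 16 and 16 (1.47 ± 0.232 per 10 kb) and in Eip93F 6, 5 and 4 (0.663 ± 0.133 per 10 kb), with every replicate of both genes below the arms. Blimp-1 had 7, 10 and 9 summits (2.79 ± 0.491 per 10 kb), hid 7, 7 and 10 (2.87 ± 0.621 per 10 kb) and rpr 2, 3 and 2 (2.14 ± 0.53 per 10 kb). All replicate values of Eip74EF, tai, hid and Blimp-1 were above the density of the arms, and those of rpr fell on either side of it. The order by mean density was Eip74EF, tai, hid, Blimp-1, rpr, br, Eip93F and grim. From Eip74EF down to rpr, neighbours in this order had overlapping replicate values. The values of br were all below those of rpr and above those of Eip93F. Per gene, fewer pooled summits per 10 kb than in Eip93F were found in 11.5% of protein-coding genes and fewer than in br in 24.0%. That share was 34.9% for hid, 43.7% for rpr, 45.3% for Eip74EF, 49.6% for Blimp-1 and 54.8% for tai. By the pooled list tai alone was thus above the middle of all genes. Against the median of all genes in each replicate, tai and Eip74EF were above it in replicates 1 and 2, Blimp-1 in replicate 2 and hid in replicate 3.

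**Figure D3:**
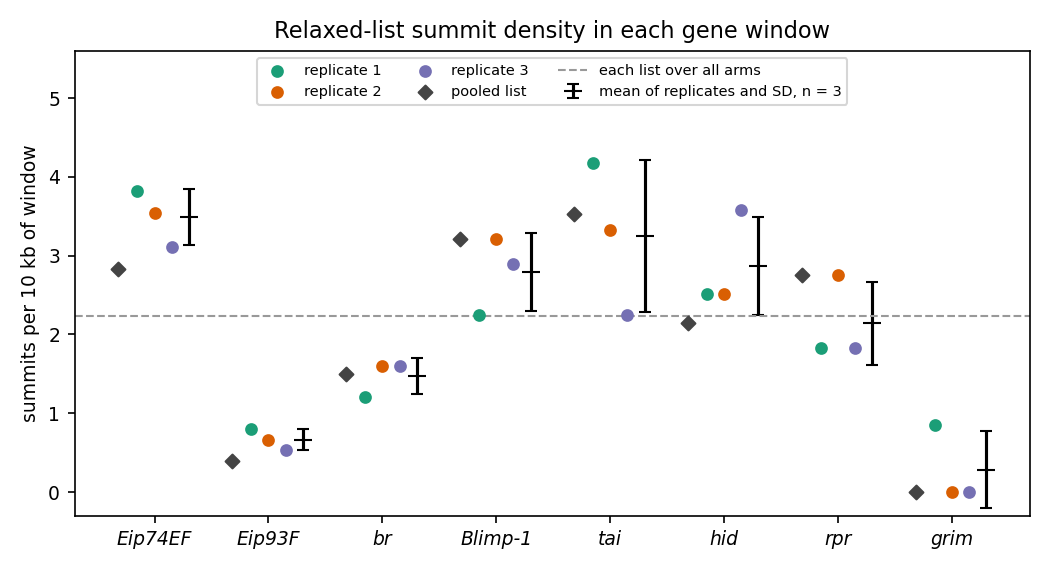
Summits per 10 kb of window for each of the 8 genes in the pooled list (diamonds) and the 3 replicate lists (circles), with the mean and SD of the replicates (bars, n = 3). The dashed line is the density of each list over all arms, 2.24 per 10 kb. Eip74EF, tai, hid and Blimp-1 lie above the line in every replicate, Blimp-1 and tai by little in their lowest one (2.25 each), and br, Eip93F and grim lie below it in every replicate.

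Of the 80 pooled summits outside the IDR list, 43 (53.8%) were in an intron of the gene itself and 15 (18.8%) in its coding exons. At one of its starts were 7 (8.75%). What share of the windows is intron or coding exon was not measured, so these counts describe positions only. In tai, 19 of 30 were intronic and in Eip74EF 13 of 19. Few recurred in the replicates: 8 of 80 had a match within 150 bp in all 3 full lists, against 16.0% of the 26504 pooled entries outside the IDR list. Those 8 were 4 in the window of Eip74EF, 3 in that of tai and 1 in that of rpr. Of the tai ones 1 lay outside the gene, 2514 bp upstream and 29 bp from the TSS of CG13108. The highest of the Eip74EF ones was in intron 1 of 7 of Eip74EF-RA, 6896 bp downstream of the start, at rank 6073 and at 4535, 7403 and 13606 in the replicates. In tai it was in intron 2 of 14 of tai-RC, 14099 bp downstream of that start, at rank 6200 and at 13864, 12213 and 23370. The word AAGTCA was within 50 bp of 4 of the 80 (5.0%), near its 4.81% at all IDR summits and 4.62% in their flanking windows. The related AGGTCA was also at 4 of the 80 (5.0%), against 1.83% of all IDR summits and 2.66% of the flanking windows. These counts are small, and the share of either word over all pooled entries outside the IDR list was not counted. Over all 23 starts of the 8 genes, 10 (43.5%) had a pooled summit within 500 bp, against 52.6% of the 19607 protein-coding starts. By gene this was 6 of 8, all but Eip93F and grim, against 54.2% of protein-coding genes.

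The genes hid, grim and rpr stand in a cluster with skl, the fourth gene of the family, in long stretches of sequence with few other coding genes. The windows above leave out most of that sequence, so the whole interval, chr3L:18162745-18444942 (282.2 kb), was counted too. It held 5 IDR summits, of which 4 lay between the TSSs of hid and grim, 1 between rpr and skl, and none between grim and rpr. Per length this was 0.177 per 10 kb, against 0.261 over all arms, and the 60 pooled summits of the interval were 2.13 per 10 kb against 2.24. Besides the hid promoter and the rpr summit, the 3 further summits were far from any of the death genes. One was 26.7 kb from the hid TSS, at rank 2315 and at 3834, 1885 and 2664 in the replicates. The next, 50.4 kb from hid, had the highest rank of the interval, 559, with 656, 491 and 575 in the replicates, and was 1264 bp from the start of the non-coding gene lncRNA:CR45937. The last, 95.8 kb from hid and 22989 bp from grim, had rank 647 and stood at 617, 659 and 933. The 3 summits of highest rank in the cluster were thus the hid promoter and a pair of summits in the space between hid and grim.

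The relaxed lists, too, were densest between hid and grim, although in them the stretch from grim to rpr was not empty. Between hid and grim, a distance of 118.8 kb, the replicates had 43, 31 and 43 summits, or 3.28 ± 0.583 per 10 kb (SD, n = 3). Between grim and rpr, over 94.0 kb, they had 20, 17 and 11, or 1.7 ± 0.487 per 10 kb, and between rpr and skl, over 41.5 kb, 6, 4 and 5, or 1.2 ± 0.241 per 10 kb. Every replicate was denser between hid and grim than in the other stretches. The skl window itself had no IDR summit and 1 pooled summit, 56 bp from the TSS at rank 17119, with entries in replicates 1 and 2 within 500 bp and no entry in replicate 3.

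**Figure D4:**
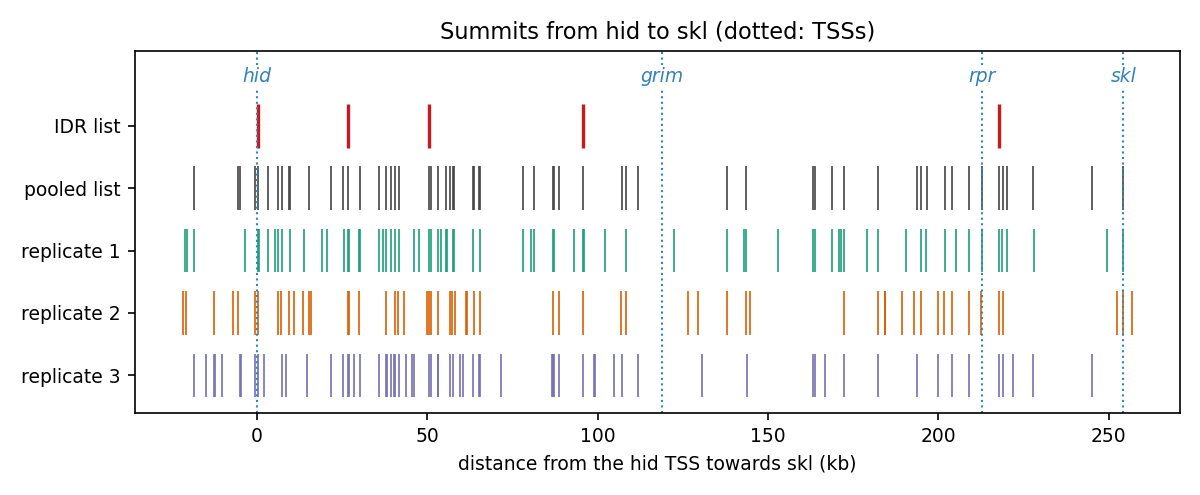
Summits in each list across the cluster of hid, grim, rpr and skl, in kb from the hid TSS. Each tick is a summit and dotted lines are TSSs. The IDR row has 4 ticks from hid to the space before grim and 1 beside rpr, and the stretch from grim to rpr has none.

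Lists of other genes of the 2 pathways, chosen with earlier results of these data known, give the surroundings of the 8 genes. The counts of each list stand against 44.6% of all protein-coding genes with an IDR summit in the window and 19.1% with one at a TSS. The list for the receptor and its coregulators also took in the juvenile hormone receptors gce and Met and the ecdysone importer Oatp74D. Of its 11 genes, 9 had an IDR summit in the window and 3 at a TSS. The 3 were usp (rank 1070), the partner of EcR, trr (rank 3038), a histone methyltransferase, and E(bx) (rank 3056), a chromatin remodelling subunit. The usp summit ranked 1040, 1371 and 1208 in the replicates. The trr summit ranked 1972, 4010 and 3873, and that of E(bx) 2511 and 2729 in replicates 1 and 2, with no match in replicate 3. In the 3496 highest peaks of replicates 1, 2 and 3, promoter summits were found at 6, 2 and 3 of the 11 genes, so this count varied widely between replicates. Of 7 nuclear receptors of the cascade, 5 had a window summit and 1 a promoter summit, Eip75B, at 17 bp and rank 317. Genes of ecdysone synthesis and breakdown had 4 of 13 and none at a TSS. Of 18 other ecdysone-induced genes, 11 had a window summit and 2 a promoter summit. These were E23, a transporter gene, at rank 146 and Eip63F-1, a calcium-binding protein gene, at rank 849. Late temporal factors had 3 of 4 in the window and none at a TSS.

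Of 21 core genes of apoptosis, 15 had an IDR summit in the window and 3 at a TSS. These were HtrA2 (rank 732), a mitochondrial protease, p53 (rank 1765) and the effector caspase Dcp-1 (rank 2958). In replicates 1, 2 and 3 the HtrA2 summit ranked 657, 726 and 958 and that of p53 1539, 2273 and 2492. The Dcp-1 summit ranked 2057, 5130 and 4880, so it was among the 3496 highest peaks of replicate 1 only. Of 17 autophagy genes, 12 had a window summit and 6 a promoter summit, with the highest ranks at Atg2 (372), Atg17 (384), Atg18a (967) and Atg7 (1649). The summits of Atg2, Atg17 and Atg18a were among the 3496 highest peaks of every replicate. The Atg7 summit ranked 1908, 7614 and 874, so it was not among them in replicate 2. Over the 7 lists together 59 of 91 genes (64.8%) had a window summit and 15 (16.5%) a promoter summit, against 44.6% and 19.1% of all protein-coding genes. No promoter summit was restricted to those not shared with a neighbour, and differences in window length were not removed.

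**Figure D5:**
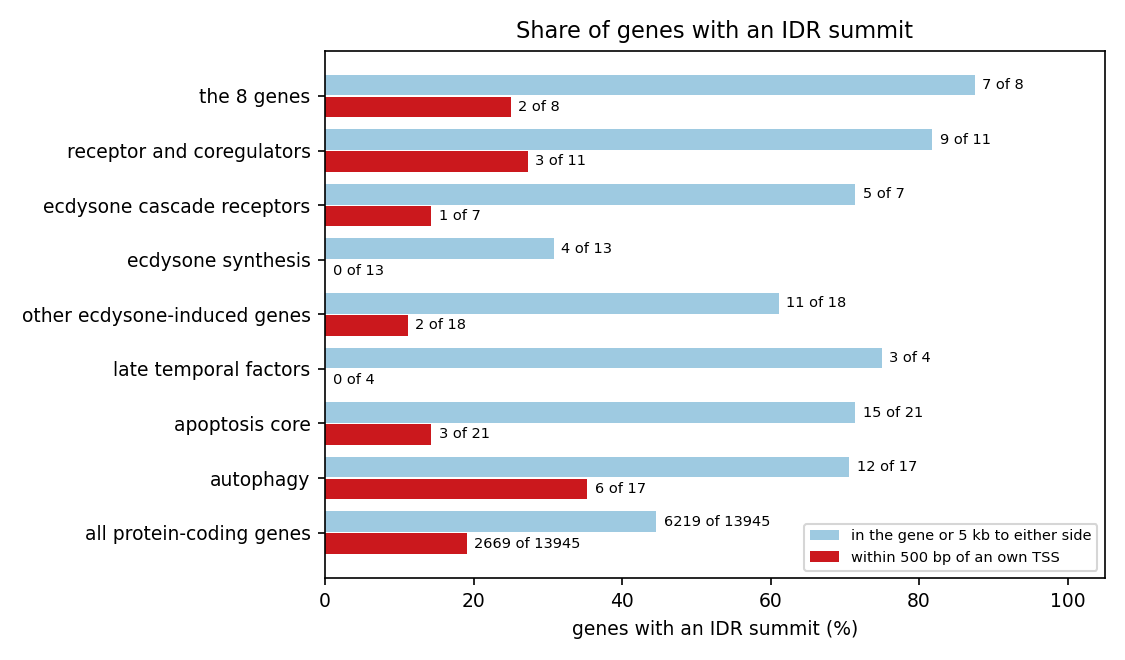
Percent of genes with an IDR summit in the gene and 5 kb to either side (upper bars) and within 500 bp of an own TSS (lower bars), for the 8 genes, the 7 lists and all protein-coding genes. The 8 genes stand at 7 of 8 and 2 of 8, and all protein-coding genes at 44.6% and 19.1%.

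Genes with the most similar counts were sought over the 5 lists, by the sum of absolute differences of log2(count + 1), where 0 means equal counts. Closest to Eip74EF were tkv (0.35), heca (0.44) and sgg (0.59), and closest to tai were luna (0.78), CG43658 (0.83) and lilli (0.84). For br they were fs(1)h (0.2), mask (0.42) and Abl (0.43), and for Eip93F CG7745 and CG33798 (0.19 each) and Drip (0.22). Blimp-1 was closest to mtSSB (0.13), Pi3K59F (0.19) and Irp-1A (0.26), and hid to phyl (0), CG2059 (0.14) and Pal1 (0.19). CG43336, Tasp1 and sing had the same 5 counts as rpr. Several of these genes have much shorter windows, such as the 12.0 kb of CG7745 against the 75.4 kb of Eip93F, so equal counts do not mean equal density.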

How the data were processed

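Per the labels, chromatin of 3 biological replicates was sonicated to 200 to 800 bp. Which aligner and peak caller were run is not stated in the labels. The deposited dm6 peak lists give each peak a signal value and a −log10 q value, made by the authors with no common scale between lists. Signal was used for ranks within a list and the −log10 q values were not used. Lists for dm3 were not used. Depth per sample is unknown.

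Summits were placed on the Ensembl release 115 annotation (BDGP6.54, FlyBase 6.54) and Release 6 sequence with Python 3.11.15, numpy 2.4.6 and pandas 2.3.3, and figures were drawn with matplotlib 3.10.9. Replicate peaks matched when summits were within 150 bp. Only the rule for counting summits in windows was tried on simulated summits, in a separate copy of the formula that made the reported counts. No test between groups was possible with 1 group. The text names the 8 genes, skl, genes whose TSS is within 500 bp of an IDR summit of the 8, up to 4 genes per list with a promoter summit of highest signal, and the 3 genes most alike each gene that had an IDR summit. Mur2B, CG13108 and lncRNA:CR45937 were named after their values were seen, to place a summit. The genes gce, Met and Oatp74D were named to show what their list holds. The members, lists and rules were chosen with earlier results of these data known. Alternatives covered the IDR threshold, flank, TSS distance, summit match and left-out replicates.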

Additional observations from a re-analysis of the deposited data

How the results depend on the processing

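The window decided how many of the 8 genes counted. With no flank 2 summits in 2 genes were left (median 0 per gene), against 9.85% of protein-coding genes, and with 2 kb 5 summits in 3 genes (median 0), against 32.1%. With 10 kb 7 of the 8 genes had a window summit, against 57.8% of protein-coding genes. The 1748 IDR peaks of higher signal gave 6 summits in 6 genes, 2 of them with a promoter summit. Against this, 28.1% of protein-coding genes had a window summit and 11.0% a promoter summit. All pooled entries gave 90 summits, a median of 8 per gene, 44 in introns and 4 with AAGTCA. With them 7 genes had a window summit and 6 a promoter summit, against 89.0% and 54.2% of protein-coding genes. A 200 bp distance, or a peak that covers the TSS, left 1 gene, tai, with a promoter summit, against 14.4% and 13.6%, and the wider distance gave 21.6%. Summits found in all 3 replicates were 3 with a 50 bp match and 10 in the full lists. Leaving out each replicate in turn gave 5 to 7 summits and 0 to 1 in introns. They lay in the windows of 5 to 6 genes, against 31.6% to 35.1% of protein-coding genes. In each case 2 genes had a promoter summit, against 12.5% to 14.2%. The br intron summit was left only without replicate 3. The cause of these changes was not tested. No paired analysis was possible because there is 1 group. Unknown depth limits every statement on a missing summit.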
